A study of Mus musculus with 6 samples.

Results

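The mRNA of 10 secreted growth and colony-stimulating factors was followed in RAW264.7 cells, a mouse macrophage-like line, before and after gamma irradiation. The members were chosen by gene symbol from the 24062 genes of the count tables, and comprised the colony-stimulating factors Csf1, Csf2 and Csf3, the epidermal growth factor (EGF) receptor ligands Hbegf and Areg, the interleukin-6 family cytokines Osm and Lif, and the tissue growth factors Igf1, Pdgfb and Tgfb1. The question was whether polarization and irradiation change the RNA of the macrophages. M0 cells received no polarizing agent, M1 cells LPS at 100 ng/mL with IFN-γ at 20 ng/mL for 24 h, and M2 cells IL-4 at 20 ng/mL for 24 h. RM0, RM1 and RM2 were the same states exposed to 10 Gy from a radioactive cesium source and kept for another 24 h. Whether the non-irradiated cells were also kept for that time is not given in the sources used here, so that irradiation and time in culture cannot be told apart. The source label names bone marrow, whereas the cell line label names RAW264.7. Each of the 6 conditions was 1 RNA library, pooled from 5 wells of cells, so no spread between replicates could be computed.

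Macrophages release these proteins to instruct their neighbours and themselves. CSF1 (M-CSF) keeps macrophages alive and drives their differentiation, CSF2 (GM-CSF) activates myeloid cells, and CSF3 (G-CSF) drives the production of neutrophils. HB-EGF and amphiregulin, the products of Hbegf and Areg, are made as membrane-bound precursors and shed by proteases to activate the EGF receptor. Oncostatin M and LIF signal through receptor complexes that contain gp130, the product of Il6st. IGF-1 and PDGF-B promote growth and repair of mesenchymal cells, and TGF-β1 is stored in latent form and restrains inflammation once activated.

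The libraries held 17894937 to 18870516 counts (median 18359190.5). The macrophage markers, of which 8 of 9 listed were in the count tables, summed to 318705 to 725386 counts. Most came from Lyz2 (469530 of 600103 in M0), while Mertk had 3 to 8 counts. The T cell list reached at most 1 count, the B cell list at most 4, and all 4 epithelial markers were at 0 in every library. The 6-gene fibroblast list summed to 128 to 199 counts in M0, M2, RM0 and RM2 and to 645 and 764 in M1 and RM1, mainly from Dcn (113 counts in M0, 627 in M1), with Col1a2 and Col3a1 at 0 throughout. The neutrophil list, nearly all S100a8, summed to 2850 to 6670 counts outside the M1 state and to 32468 and 51248 in M1 and RM1, and the granule enzyme gene Elane had at most 1 count. The parts of these lists in the results for M1 cells were not tested. Nos2, the M1 marker for inducible nitric oxide synthase, had 14393 counts in M0 and 169925 in M1. The M1 markers Cxcl10, Cd86 and Il12b had 117, 176 and 2 counts in M0 and 1278, 493 and 27 in M1. Il1b had 2638 counts in M0 and 2819 in M1, but its counted interval covers only 12.7% of the annotated gene. In RM1, Nos2 (129631 counts), Cxcl10 (242), Cd86 (319) and Il12b (16) were lower than in M1, while Il1b (6624) was higher. How far RM1 cells kept the M1 state was not tested. Among the M2 markers, Arg1 (arginase) was at 0 in M0 and reached 31 counts in M2 and 89 in RM2. Mrc1 fell between 5 and 50 counts with its highest value in M1, and Retnla and Chil3 were at 0 in every library. The M2 label comes from the IL-4 treatment, and the RNA of these marker genes gave it few counts.

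All 10 factors were detected in every library, but at widely different levels. Csf3 had by far the highest count of the factors, from 23975 in M2 to 55896 in RM1, which was 0.134% (95% exact Clopper-Pearson interval 0.132 to 0.136%) and 0.296% (0.294 to 0.299%) of all counts. Such intervals cover counting error only and not the variation between cultures. Per kilobase of the longest annotated transcript, Csf3 ranked between 22 and 61 among 22724 genes, and its level was 836 to 2373 TMM-scaled CPM per kilobase, where CPM is the count set to a common library size. Tgfb1 followed at 121 to 184, Lif at 29.0 to 105, Osm at 25.04 to 45.6 and Pdgfb at 16.8 to 22.5 on the same per-length scale. The other factors were scarce, with per-length levels of 0.83 to 3.24 for Areg, 0.99 to 6.66 for Hbegf, 0.63 to 9.45 for Csf2, 0.36 to 1.88 for Csf1 and 0.051 to 0.87 for Igf1. Over the 6 libraries the ranges of Csf3, Tgfb1 and Lif did not overlap in that order, nor did those of Osm and Pdgfb or of Pdgfb and Areg. The ranges of Lif and Osm overlapped, as did those of each neighbouring pair among Areg, Hbegf, Csf2, Csf1 and Igf1.

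**Figure D1:**
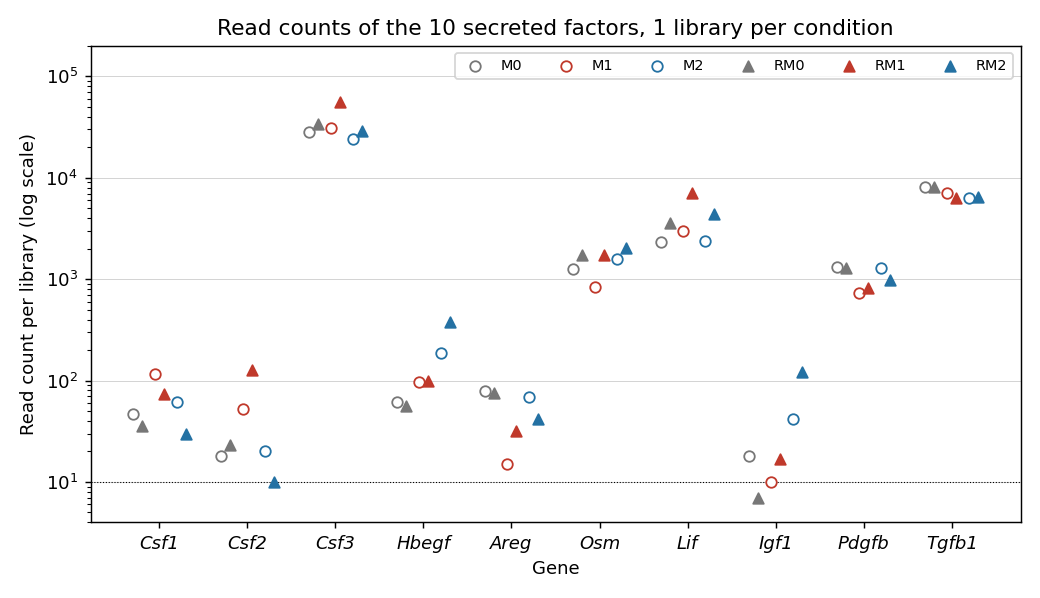
Read counts of the 10 factors on a log axis, 1 point per library, with circles for non-irradiated and triangles for irradiated cells and a dotted line at 10 counts. Csf3 lies between 23975 and 55896 counts in all 6 libraries, whereas Igf1 lies between 7 and 122.

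Irradiation was compared within each state. A gene was called when the 2 libraries differed by at least 2-fold after scaling by the trimmed mean of M-values (TMM) and at least 1 of them had 10 counts, which all 10 factors had in every comparison. In M0 cells 1 factor was called, Igf1, which was lower in RM0, against 1.54% of the 11688 genes tested. In M1 cells 2 factors, Lif and Csf2, were called higher in RM1, against 5.34% of 11443 genes. In M2 cells 2 factors, Igf1 and Hbegf, were called higher in RM2, against 1.97% of 11801 genes. With library totals as the scaling, Hbegf fell just short in M2 cells (0.99) and Csf1 was called lower there (-1.02), which gave 1 call in each direction. The median log2 fold change of the 10 factors was -0.01 in M0, 0.60 in M1 and 0.19 in M2, while that of all genes tested was within 0.02 of 0. These are comparisons of 2 libraries and carry no p-value. The TMM factor of M1 was the lowest, at 0.800, and that of RM1 was 0.884, so that scaling raised M1 counts most and a fold change can differ in sign from the raw counts. In such bulk RNA, fewer cells that express a gene and less RNA per cell cannot be told apart.

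A shared effect of irradiation was tested with edgeR's quasi-likelihood model of state and irradiation over all 6 libraries, in which the 3 states stand in for replicates and are assumed to respond alike. Lif was the only factor of the 10 that passed an adjusted p of 0.05, against 0.475% of 11574 genes (55 genes). Its log2 fold change was 0.88 with an adjusted p of 0.00785, and it was higher in 3 of 3 irradiated libraries. At an unadjusted p under 0.05 there were 4 factors and 1707 genes. With library totals in place of TMM, 0 factors and 3 genes passed, and Lif had an adjusted p of 0.0962 (range over all alternatives 7.00e-13 to 1.00). Without the state term, also 0 factors passed.

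**Figure D2:**
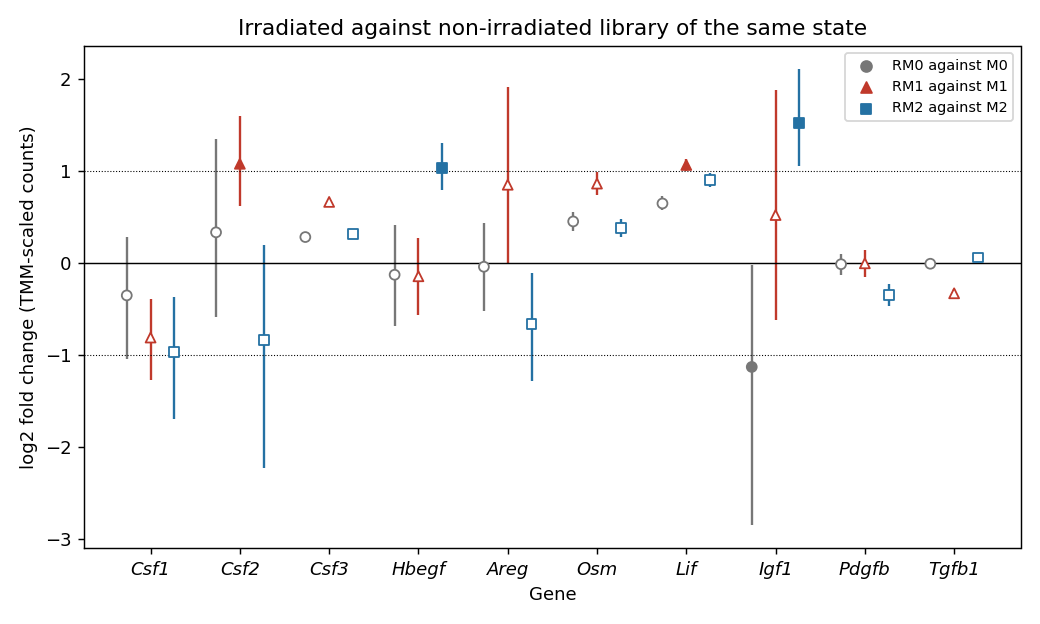
Log2 fold change of each factor, irradiated against non-irradiated, in the M0 (grey circles), M1 (red triangles) and M2 (blue squares) state. Bars are 95% intervals for counting error, dotted lines mark 2-fold and filled symbols were called; Lif, Osm and Csf3 lie above 0 in all 3 states and Csf1 lies below 0.

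Both interleukin-6 family cytokines had more RNA in each irradiated library than in its partner. Lif, a cytokine that keeps stem cells undifferentiated and induces acute-phase responses, was at 2316 counts in M0 against 3590 in RM0, at 2992 in M1 against 7073 in RM1, and at 2376 in M2 against 4353 in RM2. In counts the irradiated libraries lay above all non-irradiated ones, and RM1 was the highest, whereas per length after TMM scaling M1 (50.3) lay above RM0 (45.5). Its log2 fold change after irradiation was 0.65 (95% interval 0.57 to 0.73) in M0, 1.07 (1.01 to 1.13) in M1 and 0.90 (0.83 to 0.98) in M2, so that the interval in M0 did not reach those in the other states. Whether the response differed between the states beyond culture variation was not tested. Osm, an inflammatory cytokine that acts on stromal and liver cells, was at 1265 counts in M0 against 1713 in RM0, at 841 in M1 against 1729 in RM1, and at 1584 in M2 against 2024 in RM2. The irradiated libraries again lay above all non-irradiated ones, with M1 the lowest. Its log2 fold change was 0.45 (0.35 to 0.56) in M0, 0.87 (0.75 to 0.99) in M1 and 0.39 (0.29 to 0.48) in M2, and in M1 it was called with library totals (1.01). Osm missed the threshold over the 3 states (0.57, edgeR adjusted p = 0.0619) but passed with DESeq2 (adjusted p = 0.0140), and over all alternatives its adjusted p ranged from 0.00106 to 1.00. The genes are neighbours on chromosome 11 of GRCm38 and read on the plus strand, Osm (NM_001013365) at 4236785 to 4241026 and Lif (NM_008501) at 4257568 to 4272514.

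The 3 colony-stimulating factors did not move together. Csf3 (NM_009971, chromosome 11, 98701313 to 98703629, plus strand) was at 28503 counts in M0 against 34300 in RM0, at 31231 in M1 against 55896 in RM1, and at 23975 in M2 against 29225 in RM2. It was higher in each irradiated library than in its partner, with RM1 far above the rest. The log2 fold change was 0.28 (0.26 to 0.31) in M0, 0.67 (0.65 to 0.69) in M1 and 0.32 (0.29 to 0.34) in M2, below the 2-fold threshold in each state. Over the states it was 0.42 with an edgeR adjusted p of 0.197. Csf2 (NM_009969, chromosome 11, 54247270 to 54249899, minus strand) was at 18 counts in M0 against 23 in RM0, at 52 in M1 against 126 in RM1, and at 20 in M2 against 10 in RM2. It was high only in M1 and RM1 among the 6 libraries. After irradiation it was called higher in M1 cells (1.08, 0.63 to 1.60), while in M0 cells (0.34, -0.58 to 1.35) and M2 cells (-0.84, -2.23 to 0.19) the counting interval spanned 0. An annotated antisense gene, Gm12223, shares 96 exonic bases with Csf2, and without a stated strand in the counting its reads cannot be told apart from those of Csf2.

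Csf1 (NM_001113529, chromosome 3, 107741048 to 107760469, minus strand) went the other way. It was at 47 counts in M0 against 36 in RM0, at 116 in M1 against 74 in RM1, and at 62 in M2 against 30 in RM2. Each irradiated library was below its partner. The log2 fold change was -0.35 (-1.04 to 0.29) in M0, -0.81 (-1.26 to -0.39) in M1 and -0.97 (-1.70 to -0.36) in M2, just inside 2-fold in M2. In M2 it was called lower with library totals (-1.02) and with a prior count of 0.25 (-1.01). Across the states it was -0.74 with an edgeR adjusted p of 0.174.

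The EGF receptor ligands differed between the states. Hbegf (NM_010415, chromosome 18, 36504927 to 36515805, minus strand) was at 62 counts in M0 against 56 in RM0, at 97 in M1 against 99 in RM1, and at 189 in M2 against 382 in RM2. The M2 and RM2 libraries were the highest. Irradiation was accompanied by a call in M2 cells only among the 3 states, with a log2 fold change of 1.04 (0.79 to 1.31), against -0.12 in M0 and -0.14 (-0.56 to 0.28) in M1. Areg (NM_009704, chromosome 5, 91139615 to 91148432, plus strand) was at 78 counts in M0 against 75 in RM0, at 15 in M1 against 32 in RM1, and at 69 in M2 against 42 in RM2. M1 and RM1 were the lowest. Its log2 fold change after irradiation was -0.04 in M0, 0.85 (-0.01 to 1.91) in M1 and -0.66 (-1.27 to -0.11) in M2, none of which reached 2-fold.

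Of the tissue growth factors, Igf1 was scarce and variable, whereas Pdgfb and Tgfb1 were abundant and stayed within 2-fold in each of the 7 comparisons. Igf1 (NM_001111274, chromosome 10, 87859056 to 87937047, plus strand) was at 18 counts in M0 against 7 in RM0, at 10 in M1 against 17 in RM1, and at 42 in M2 against 122 in RM2. RM2 stood well above the other libraries. After irradiation Igf1 was called lower in M0 cells (-1.13, -2.85 to -0.02) and higher in M2 cells (1.52, 1.05 to 2.11), with 0.52 (-0.62 to 1.88) in M1 cells. Pdgfb (NM_011057, chromosome 15, 80000329 to 80014808, minus strand, 75.8% of the annotated gene) was at 1311 counts in M0 against 1286 in RM0, at 731 in M1 against 824 in RM1, and at 1275 in M2 against 982 in RM2. Its log2 fold change after irradiation was -0.01 in M0, 0.00 in M1 (0.14 with library totals) and -0.34 (-0.47 to -0.22) in M2. Tgfb1 (NM_011577, chromosome 7, 25687002 to 25704996, plus strand) was at 8166 counts in M0 against 8038 in RM0, at 7004 in M1 against 6299 in RM1, and at 6320 in M2 against 6457 in RM2. Its unscaled counts spanned the narrowest relative range of the 10 factors. After TMM scaling the relative range of Pdgfb (16.8 to 22.5 per length) was narrower than that of Tgfb1 (121 to 184). The log2 fold change after irradiation was -0.01 in M0 (0.0024 with DESeq2 size factors), -0.33 (-0.38 to -0.28) in M1 and 0.06 in M2.

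M1 polarization was compared with M0 in each irradiation arm. Without irradiation 4 of 10 factors were called in M1, where Csf2, Csf1 and Hbegf were higher and Areg was lower, against 22.7% of 11778 genes. In the irradiated arm 5 of 10 were called higher in RM1, namely Csf2, Igf1, Csf1, Lif and Hbegf, against 14.0% of 11713 genes. The median log2 fold change of the factors was 0.38 and 0.98 in these comparisons. Scaling by library totals moved the median of all genes to -0.46 in M1 against M0 and to -0.25 in RM1 against RM0 (0.13 in RM1 against M1), and with it the irradiated arm had 2 factors called higher (Csf2 and Igf1) and 1 lower (Areg, -1.19), with Csf1 at 0.98, Lif at 0.96 and Hbegf at 0.78. Hbegf also lost its call in M1 against M0 (0.61).

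Csf2 showed the largest rise of the factors in M1, with a log2 fold change of 1.84 (1.16 to 2.82) without irradiation and 2.58 (2.04 to 3.40) with it. Csf1 followed with 1.68 (1.23 to 2.25) and 1.22. Hbegf was higher by 1.04 (0.60 to 1.55) and 1.03. Areg was called lower in M1 (-1.85, -2.86 to -1.15) and was just inside 2-fold in RM1 (-0.96, -1.64 to -0.38). For Lif the values were 0.79 and 1.21 (1.15 to 1.27), and for Csf3 0.56 and 0.94. With library totals the values in M1 against M0 were 0.35 for Lif and 0.11 for Csf3. Igf1 was at -0.37 (-1.70 to 0.77) without and 1.28 (0.17 to 3.03) with irradiation, the latter against 7 counts in RM0.

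In the edgeR model over both irradiation arms, 7 of 10 factors passed for M1 against M0, where 47.6% of all genes passed. Here the 2 arms stand in for replicates and are assumed to show the same polarization effect. Those that rose were Csf2 (2.37, adjusted p = 0.000774), Csf1 (1.51, 0.00105), Hbegf (1.06, 0.0168), Lif (1.00, 0.000193) and Csf3 (0.75, 0.00337), all in log2 units with edgeR adjusted p-values. Areg fell by 1.38 (0.00958) and Pdgfb fell by 0.41 (0.0250) on the log2 scale. Each of these 7 factors had the same direction in both arms. Osm (0.05, adjusted p = 0.791), Tgfb1 (0.05, 0.807) and Igf1 (0.35, 0.683) did not pass, and the single-arm values of Tgfb1 in M1 (0.20) and of Osm in RM1 (0.25) turned to -0.24 and -0.0027 with library totals. With library totals 4 factors rose and 3 fell, with Tgfb1 (-0.30, adjusted p = 0.0409) among the latter (range over alternatives 0.0409 to 0.921) and Hbegf no longer called (adjusted p = 0.0967, range over alternatives 0.00591 to 0.0967). The same scaling lowered Csf3 to 0.41 and Lif to 0.66 and moved Pdgfb to -0.75, all still past the threshold. Pdgfb lost its call with DESeq2 (0.0589) and without the M2 and RM2 libraries (0.0564), with a range of 0.00494 to 0.0589.

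The start regions of the factors that M1 polarization moved most are shown for those with an entry in the RefSeq promoter table, which covers 6 of the 10 factors (Csf1, Csf2, Areg, Lif, Igf1 and Tgfb1). Each runs from 250 bases before to 50 bases after the start site, 5′ to 3′ in the direction of the gene on build GRCm38.p6, with capitals for matches to any of 5 motifs searched on both strands. These were the NF-kB consensus, AP-1 (TGANTCA, with N taken as C or G), the cyclic AMP response element (TGACGTCA), the interferon-γ activation site (TTCNNNGAA) and the TATA box (TATAAA), which occurred in 8.46%, 5.20%, 1.79%, 8.30% and 13.6% of 32851 promoters of that length.
Csf2 (chr11:54249850-54250149, minus strand): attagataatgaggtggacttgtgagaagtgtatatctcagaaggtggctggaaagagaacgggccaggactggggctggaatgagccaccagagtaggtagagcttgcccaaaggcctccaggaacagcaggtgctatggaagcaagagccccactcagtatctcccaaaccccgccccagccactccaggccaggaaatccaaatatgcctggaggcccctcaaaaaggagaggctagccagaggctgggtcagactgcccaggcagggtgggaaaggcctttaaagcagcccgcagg
Csf1 (chr3:107760420-107760719, minus strand): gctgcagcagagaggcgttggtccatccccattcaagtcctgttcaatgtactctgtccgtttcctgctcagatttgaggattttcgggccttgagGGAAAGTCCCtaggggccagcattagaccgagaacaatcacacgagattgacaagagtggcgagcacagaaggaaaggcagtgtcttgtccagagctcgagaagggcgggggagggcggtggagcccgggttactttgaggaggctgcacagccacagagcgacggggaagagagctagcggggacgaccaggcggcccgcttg
Lif (chr11:4257318-4257617, plus strand): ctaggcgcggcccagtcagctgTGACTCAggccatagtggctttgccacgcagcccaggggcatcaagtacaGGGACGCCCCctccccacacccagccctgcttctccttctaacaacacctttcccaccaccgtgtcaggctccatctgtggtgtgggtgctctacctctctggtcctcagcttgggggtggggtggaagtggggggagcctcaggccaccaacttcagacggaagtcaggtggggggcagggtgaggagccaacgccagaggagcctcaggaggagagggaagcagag
Areg (chr5:91139349-91139648, plus strand): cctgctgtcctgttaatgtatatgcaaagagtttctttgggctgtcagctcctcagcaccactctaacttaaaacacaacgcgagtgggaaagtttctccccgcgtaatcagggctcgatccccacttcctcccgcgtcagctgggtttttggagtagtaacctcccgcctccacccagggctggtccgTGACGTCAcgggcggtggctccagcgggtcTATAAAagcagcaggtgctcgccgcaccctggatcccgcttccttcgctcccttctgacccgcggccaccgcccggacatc
Among the factors that rose in M1, the Csf1 and Lif windows held an NF-kB match, starting at positions -154 and -178 from the start site, and Lif also held an AP-1 match at -228. The Tgfb1 window, of a factor that did not pass for M1, held an NF-kB match too, at -140. The window of Areg, the factor that fell most, held a cyclic AMP response element at -61 and a TATA box at -31. The Csf2 window held none of the 5 motifs. However, it was placed on the end of the counted Csf2 interval, which spans 110% of the annotated gene. A start site inside that interval would have another window, which was not searched. A match describes the letters only.

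M2 polarization went with higher Hbegf and Igf1. Without irradiation these 2 of 10 factors were called, both higher in M2, against 1.44% of 11762 genes. Hbegf had a log2 fold change of 1.54 (1.15 to 2.01), and Igf1 of 1.10 (0.36 to 2.07). In the irradiated arm 3 of 10 factors were called, Igf1 and Hbegf higher and Csf2 lower in RM2, against 2.61% of 11748 genes. Igf1 reached 3.75 (3.02 to 5.45), from 7 counts in RM0 to 122 in RM2, and Hbegf 2.71 (2.34 to 3.18), from 56 to 382. Csf2 was at -1.07 (-2.45 to -0.09), from 23 counts to 10. Both comparisons with RM0, like both with M0, share that library. The median log2 fold change of the factors was 0.06 without and -0.26 with irradiation.

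Over both arms, edgeR passed 1 of 10 factors for M2 against M0, Hbegf, with a log2 fold change of 2.20 and an adjusted p of 0.0174, where 0.190% of all genes passed (22 genes). It was higher in 2 of 2 arms, lost the call with library totals (0.0811) and had adjusted p-values of 3.28e-32 to 0.0811 over the alternatives. Igf1 had the larger log2 fold change, 2.56, and did not pass (adjusted p = 0.105), but did with DESeq2 (0.0339, range over alternatives 1.10e-14 to 0.334). The model again took the 2 arms as replicates with the same effect. The values without and with irradiation were 1.54 and 2.71 for Hbegf and 1.10 and 3.75 for Igf1. Tgfb1 was lower in both arms (-0.40 and -0.33) and did not pass (-0.37, edgeR adjusted p = 0.464). Lif, at 0.00 in M2 (-0.0019 with DESeq2 size factors) and 0.26 in RM2, also did not pass.

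**Figure D3:**
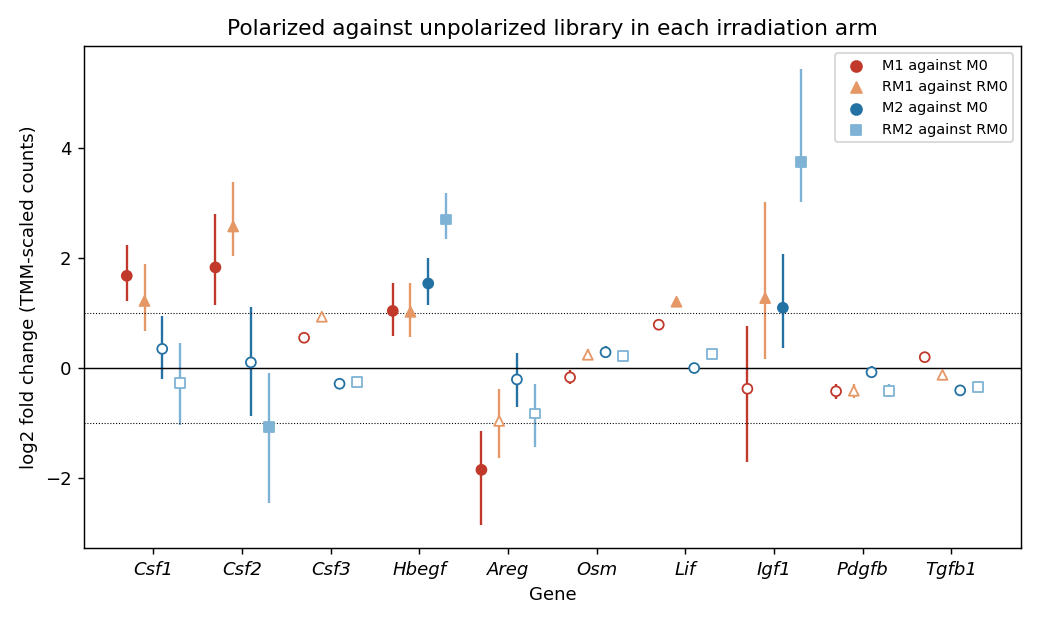
Log2 fold change of each factor against the unpolarized library of the same irradiation arm, for M1 (red), RM1 (orange triangles), M2 (blue) and RM2 (light blue squares). Bars are 95% intervals for counting error, dotted lines mark 2-fold and filled symbols were called; Csf1 and Csf2 are called higher in both M1 comparisons, and Hbegf in all 4.

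**Figure D4:**
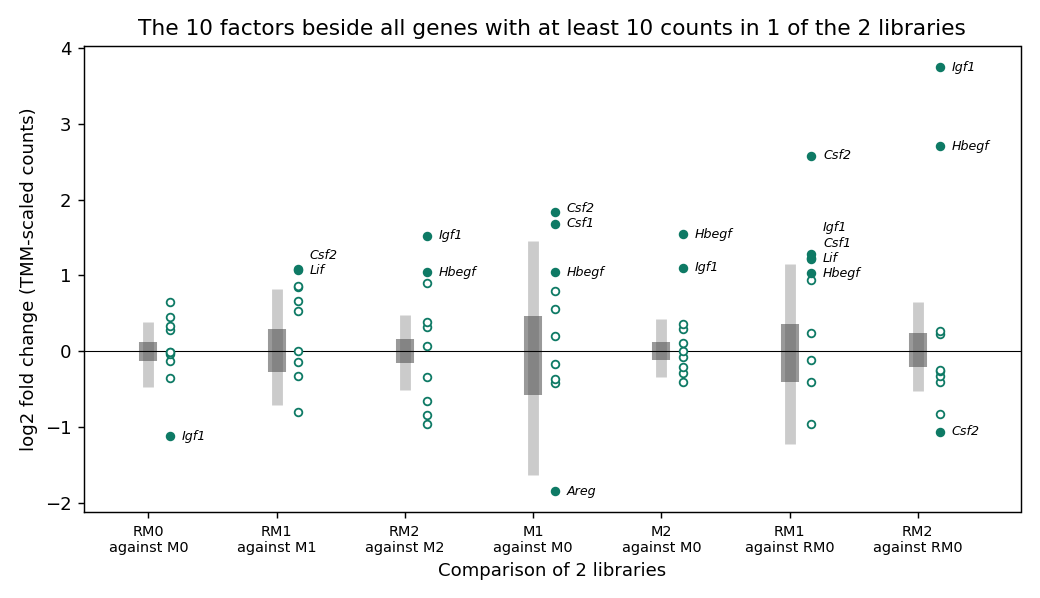
The 10 factors (green circles, filled and named where called) beside all genes tested in each of the 7 comparisons, whose log2 fold changes are shown as dark grey bars for the 25th to 75th and light grey bars for the 5th to 95th percentile. All genes spread widest in M1 against M0, from -1.63 to 1.45 between the 5th and 95th percentile, where 4 factors were called.

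The receptors through which these factors act were present for the colony-stimulating factors and TGF-β and nearly absent for several others. Csf1r, the CSF1 receptor that defines macrophages, was at 13259 counts in M0 against 14190 in RM0, at 4855 in M1 against 5561 in RM1, and at 11174 in M2 against 12442 in RM2. It was lowest in the M1 and RM1 libraries, with log2 fold changes of -1.03 and -1.12 against M0 and RM0. The counted Csf1r interval covers 43.1% of the annotated gene. Il6st, which encodes the gp130 subunit used by LIF and oncostatin M, was at 936 counts in M0 against 967 in RM0, at 1474 in M1 against 1849 in RM1, and at 935 in M2 against 1058 in RM2. It was called higher in both M1 comparisons (1.08 and 1.17). The GM-CSF receptor genes Csf2ra (1731 to 2475 counts), Csf2rb (1503 to 2435) and Csf2rb2 (605 to 1158), the G-CSF receptor gene Csf3r (32 to 103), and the TGF-β receptor genes Tgfbr1 (332 to 621) and Tgfbr2 (1126 to 2281) were counted in every library. Egfr, Erbb4, Igf1r, Lifr, Osmr and Tgfbr3 had at most 1 count in any library, and Pdgfra and Pdgfrb had 1 to 4 and 1 to 8. The counted intervals of Lifr and Pdgfra cover 63.5% and 44.8% of the annotated genes. Of 19 receptor genes listed 10 could be tested, and none was called after irradiation in any state. Of all genes tested, 1.54% were called in M0, 5.34% in M1 and 1.97% in M2 cells. At such shares, 0 calls among 10 genes do not set the receptors apart. Their median log2 fold change was 0.12 in M0, 0.21 in M1 and 0.16 in M2 cells. M2 polarization gave 0 calls among the 10 in either arm, against 1.44% of all genes without and 2.61% with irradiation.

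Among 29 other secreted ligands, 15 to 17 could be tested per comparison. After irradiation none was called in M0 cells, where 1.54% of all genes tested were. In M1 cells 2 were called higher and 1 lower (5.34% of all genes), and the same numbers in M2 cells (1.97%). The median log2 fold changes were 0.14, 0.22 and 0.18. Il11, a further gp130 cytokine, was called higher in both the M1 and M2 states, from 119 to 556 counts in M1 cells (2.04) and from 634 to 1571 in M2 cells (1.34). Il27, which encodes a subunit of the cytokine IL-27, was lower in RM1 (1052 to 350 counts, -1.76). Pgf, a member of the VEGF family, was higher in RM2 (275 to 549, 1.02). Pdgfc had 3 counts in M1 and 10 in RM1, with a log2 counting interval of -0.39 to 4.06, and Egf was lower in RM2 (26 to 8 counts, -1.44), where the counted Egf interval covers 0.651% of the annotated gene.

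For M1 polarization 8 of 16 tested ligands were called higher and 1 lower in M1, against 22.7% of all genes in either direction. In RM1, 6 of 17 were called higher and 1 lower, against 14.0% of all genes. The highest in M1 were Il27 (84 counts in M0 and 1052 in M1, 4.04), Pgf (171 and 1167, 3.18) and Il6 (97 and 449, 2.61). Il11 was the one called lower in M1 (545 and 119 counts, -1.76). M2 polarization gave 0 calls among 16 without and 1 lower call (Egf) with irradiation, against 1.44% and 2.61% of all genes. The median log2 fold change of the tested ligands was 0.89 in both M1 comparisons, beside medians of all genes near 0.

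Of 19 genes for proteins that shed, activate or bind the factors, 12 could be tested. After irradiation none was called in M0 cells, 2 in M1 cells and 1 in M2 cells, against 1.54%, 5.34% and 1.97% of all genes. The median log2 fold changes were 0.08, 0.10 and 0.08. Ltbp1 (20 to 52 counts, 1.14) and Ltbp2 (5 to 20, 1.55), of the latent TGF-β binding protein family, were higher in RM1, and Igfbp6, an IGF-binding protein gene, was lower in RM2 (75 to 31, -1.19). In M1 against M0, Furin, a protease that cleaves the TGF-β1 precursor, was called higher (9955 and 17733 counts, 1.26), and Igfbp4 (529 and 60, -2.68) and Igfbp6 (117 and 30, -1.49) lower. In RM1 against RM0, 3 were called higher and 1 lower, in RM2 against RM0 1 was higher, and in M2 against M0 none was called. Of all genes, 22.7% were called in M1 against M0, 14.0% in RM1 against RM0, 2.61% in RM2 against RM0 and 1.44% in M2 against M0.

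Feedback and target genes of these pathways were also listed, and 13 of 14 could be tested. In RM1 against M1, Socs2 (24 to 81 counts, 1.52), a feedback inhibitor of cytokine receptors, and Errfi1 (1090 to 2962, 1.27), an inhibitor of the EGF receptor, were called higher. Socs1 (205 to 63, -1.85), a feedback inhibitor of interferon signalling, was called lower. The counted Socs2 interval covers 16.9% of the annotated gene. In the M0 and M2 states none was called after irradiation, and the median log2 fold change was 0.12 in M0, 0.06 in M1 and 0.03 in M2 cells. Of all genes tested, irradiation gave calls for 1.54% in M0, 5.34% in M1 and 1.97% in M2 cells. M1 against M0 gave 7 higher and 2 lower calls, among them higher Socs1 (18 and 205 counts, 3.78) and Id1 (330 and 972, 1.98). RM1 against RM0 gave 6 higher and 0 lower calls. The shares of all genes called in either direction were 22.7% in M1 against M0 and 14.0% in RM1 against RM0. In M2 against M0 none was called (1.44% of all genes were). In RM2 against RM0 (2.61% of all genes) Cish alone of the 13, a cytokine-inducible feedback inhibitor, was higher (94 and 356 counts, 1.88).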

How the data were processed

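RNA sequencing of 6 pooled libraries of RAW264.7 cells was analysed. The authors deposited raw read counts per gene for each library, with gene coordinates on mm10 (GRCm38). The submitters' processing notes name Trimmomatic 0.36, HISAT2 2.2.1 and HTSeq 0.11.3. Whether reads were counted by strand is not given in the sources used here. Members and gene lists were chosen with earlier results of these data known.

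Counts were scaled by TMM (factors 0.800 to 1.13, computed on genes with at least 10 counts in 3 libraries) in edgeR 4.0.16 under R 4.3.3. A prior count of 2 entered each log2 fold change, and the 95% Clopper-Pearson intervals came from the unadjusted counts of the 2 libraries. Calls needed 2-fold and 10 counts in 1 of the 2 libraries. The additive edgeR quasi-likelihood model of state and irradiation left 2 residual degrees of freedom and gave a common biological coefficient of variation of 0.107; p-values were Benjamini-Hochberg adjusted over 11574 genes, and measure only the spread between these libraries. Levels per length used the longest GENCODE transcript. From the other lists, genes were named where called after irradiation, with up to 3 of the largest M1 calls and all receptors of the factors eligible. The values of 1 gene that this rule named are not reported here. Scripts were tested on simulated data. The alternatives were DESeq2 1.42.0 size factors or its Wald test, library totals, another prior count, other filters, a 4-fold threshold, no state term, and leaving out a state. Symbols written as dates (27 in every count file) were kept, and none was a member.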

Additional observations from a re-analysis of the deposited data

Results flagged for a closer look

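Igf1 was called in opposite directions after irradiation in 2 states. Its log2 fold change was -1.13 in RM0 against M0 (18 and 7 counts) and 1.52 in RM2 against M2 (42 and 122 counts). The difference between the states was not tested, since each condition had 1 library. With at least 50 counts required in 1 of the 2 libraries, the M0 comparison could not be called, because both libraries were below that minimum.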

How the results depend on the processing

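With 1 library per condition, counting intervals bound only sampling of reads, and factors under about 100 counts had wide ones. No change of a factor that was called turned its direction in any alternative run. DESeq2 size factors left 69 of 70 changes between 2 libraries within their counting intervals, library totals 48 of 70 and a prior count of 0.25 all 70.

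At a 4-fold threshold the number of factors called was 0 in RM0 against M0, RM1 against M1, RM2 against M2, M1 against M0 and M2 against M0, and 1 in RM1 against RM0. In RM2 against RM0, Igf1 (3.75) and Hbegf (2.71) stayed past 4-fold and Csf2 (-1.07) did not. With at least 50 counts it was 0 in RM0 against M0 and 1 in M2 against M0. With library totals it was 3 in RM1 against RM0 in place of 5, 3 in RM1 against M1 in place of 2 (Osm added, 1.01) and 3 in M1 against M0 in place of 4. A prior count of 0.25 gave 3 in RM2 against M2 in place of 2 (Csf1 added, -1.01). The share of all genes called under these alternative settings is not given here. Whether the factors moved with all genes therefore cannot be read from these counts. In the model, the irradiation term passed 1 factor, with 0 under library totals (4 at an unadjusted p under 0.05), where 3 of 11574 genes passed. It passed 2 with no filter, where 156 of 15925 genes passed, and 2 by DESeq2, where 115 of 11574 genes passed. Without the state term it passed 0 (2 at an unadjusted p under 0.05, and 138 of all genes). Leaving out one state gave 1 to 5, with 5 (Csf3, Hbegf, Osm, Lif and Igf1) without M1 and RM1, where 534 of 11667 genes passed in place of 55 of 11574. The M2 term passed 1 factor, with 0 under library totals (3 at an unadjusted p under 0.05), where 3 of 11574 genes passed. It passed 2 with no filter (56 of 15925 genes) and 2 by DESeq2 (Hbegf and Igf1, with 41 of 11574 genes). Without M1 and RM1 it passed 4 (Hbegf, Igf1, Csf3 and Tgfb1), where 1341 of 11667 genes passed in place of 22 of 11574. The M1 term passed 7 factors, with 5509 of 11574 genes. It passed 6 by DESeq2 (4471 of 11574 genes) and 6 without M2 and RM2 (4482 of 11595 genes). Fits that left out a state held 4 libraries with 1 residual degree of freedom. They gave the smallest p-values for Lif and Osm in the irradiation term and for Hbegf and Igf1 in the M2 term. The cause of these differences was not tested.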

Other observations

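The genes whose pattern over the 6 libraries was most like that of each factor were looked up among 10189 or 10190 genes whose mean count reached 50. All points share the same 6 libraries, so that the coefficients are a description. Lif was closest to Aff1 (Pearson r = 0.998), Slc19a2 (0.995) and Serpini1 (0.994), and Osm to Chd9 (0.996), Pld1 (0.993) and Pnrc1 (0.990). For Csf3 the closest were Usp4 (0.998), Met (0.995), the receptor of hepatocyte growth factor, and Mgat5 (0.994). Csf1 was closest to Oat (0.997), and Csf2 to St6gal1 (0.992). Areg was closest to Spry2 (0.994), a feedback inhibitor of receptor tyrosine kinase signalling. Hbegf was closest to Plaa (0.986) and then to Il13ra2 (0.982), which encodes a receptor for IL-13. Igf1 was closest to Zcchc10 (0.995), Pdgfb to Khk (0.991) and Tgfb1 to Tmem164 (0.996).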
